A study of Homo sapiens with 8 samples.

Results

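The genes described here are those of the Wnt pathway, from ligand to transcription factor, in brain organoids with and without FABP7. They were taken from the gene table by symbol: every WNT, FZD, SFRP, DKK and RSPO gene with a number, together with FRZB, WLS, PORCN, LRP5, LRP6, LGR4, LGR5, AXIN1, AXIN2, APC, LEF1, TCF7, TCF7L1, TCF7L2, NOTUM, RNF43, ZNRF3 and WIF1. This gave 54 of the 17504 genes in the table. WNT2, WNT3A, WNT6, FZD10 and DKK4 were not analysed here.

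Organoids were grown from IMR90-4, an established line of human induced pluripotent stem cells, and RNA was measured in bulk at day 30 in 3 control libraries, labelled WT in genotype, and 3 FABP7 knockdown libraries. The design text of the series speaks of an adipogenic differentiation, while its title and the labels speak of the brain, and the labels were followed. The title of the series sets the comparison in a study of FABP7 and the radial glial scaffold of the developing cortex. Per the labels' protocol there was a single derivative line of IMR90-4 for each group, so FABP7 loss and any other divergence of the 2 lines cannot be told apart, and how FABP7 was knocked down is not given in the sources used here. Whether the replicates were grown as separate cultures is not stated, so the spread behind each p-value is that of these libraries and may be technical.

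Depth was 13424959 to 15675888 estimated counts per control library and 15063815 to 15360145 per knockdown library. FABP7, the targeted gene, had counts of 3123, 2650 and 2850 in control replicates 1, 2 and 3 and of 14, 15 and 16 in the knockdown replicates, a log2 fold change of -7.57 ± 0.09 (SE, edgeR quasi-likelihood test, adjusted p = 6.04e-26). Genes of forebrain progenitors and neurons marked the tissue: PAX6, a factor of radial glia, stood at 118 TPM in control and 88.8 TPM in knockdown, and DLX1, a factor of the ventral forebrain, at 147 and 112 TPM. Of 13468 genes that passed the filter on low counts, 6966 (51.7%) were called at an adjusted p under 0.05, and 631 (4.69%) also passed a test against a 1.5-fold change. Counts of called Wnt genes are to be read against these shares.

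Wnt proteins are secreted lipid-modified ligands. In the canonical branch they bind a Frizzled receptor and the co-receptor LRP5 or LRP6, which stops a cytoplasmic complex built on AXIN and APC from destroying beta-catenin, and beta-catenin then acts with TCF and LEF factors on target genes. In the developing forebrain Wnts are made at the dorsal midline, or cortical hem, where they pattern the cortex, and secreted inhibitors such as the SFRP proteins limit their reach.

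The promoter sequences of 5 genes are given first, from RefSeq on GRCh38.p14. FRZB, WLS, WNT9B and RSPO3 were taken because they passed the test against a 1.5-fold change and had a promoter window. WNT3 was taken because it was called and its window holds the letters CTTTGTT, so its match below was the reason for printing it. Each run is the 250 bases before the annotated start, 5′ to 3′ on the gene's own strand, and the WNT9B start used lies inside the annotated span of the gene.
FRZB, chr2:182866638-182866887, minus strand: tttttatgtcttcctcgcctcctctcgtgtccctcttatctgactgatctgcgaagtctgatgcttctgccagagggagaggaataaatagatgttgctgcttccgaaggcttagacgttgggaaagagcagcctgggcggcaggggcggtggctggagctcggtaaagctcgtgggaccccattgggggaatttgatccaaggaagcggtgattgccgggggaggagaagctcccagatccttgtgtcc
WLS, chr1:68232547-68232796, minus strand: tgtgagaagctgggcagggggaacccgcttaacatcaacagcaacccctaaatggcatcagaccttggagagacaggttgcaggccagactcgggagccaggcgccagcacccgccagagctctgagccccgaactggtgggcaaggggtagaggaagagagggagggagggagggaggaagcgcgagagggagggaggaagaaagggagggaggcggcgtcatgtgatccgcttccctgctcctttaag
WNT3, chr17:46818693-46818942, minus strand: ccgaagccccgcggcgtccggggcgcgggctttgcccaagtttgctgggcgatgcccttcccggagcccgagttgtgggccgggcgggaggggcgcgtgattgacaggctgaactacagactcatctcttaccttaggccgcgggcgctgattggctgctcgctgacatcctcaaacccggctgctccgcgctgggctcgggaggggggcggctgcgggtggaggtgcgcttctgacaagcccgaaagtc
WNT9B, chr17:46851333-46851582, plus strand: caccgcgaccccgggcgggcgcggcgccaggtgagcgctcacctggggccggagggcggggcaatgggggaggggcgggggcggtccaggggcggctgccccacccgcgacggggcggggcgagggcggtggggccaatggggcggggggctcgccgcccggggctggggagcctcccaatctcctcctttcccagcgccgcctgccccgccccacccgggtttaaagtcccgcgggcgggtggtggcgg
RSPO3, chr6:127118421-127118670, plus strand: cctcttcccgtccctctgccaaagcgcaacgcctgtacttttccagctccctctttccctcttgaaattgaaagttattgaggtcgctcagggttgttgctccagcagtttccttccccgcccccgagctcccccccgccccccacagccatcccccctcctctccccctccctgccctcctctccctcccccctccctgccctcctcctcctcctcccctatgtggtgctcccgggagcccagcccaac
Windows of 250 bases before to 50 bases after a start were present for 38 of the 54 genes, 48 windows in all. The letters CTTTGAT, a form of the TCF and LEF motif, were in 0 of these 48 windows on either strand and in 2.62% of all 35116 windows in the table. The variant CTTTGTT was in 4 of the 48 (8.33%), those of DKK1, TCF7, TCF7L2 and WNT3, and in 5.2% of all windows. In WNT3 it began 19 bases after the start (chr17:46818655-46818684, minus strand, motif in capitals): tctcaagtggaCTTTGTTccaactattggg. A match is a description of these letters and not a binding site.

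The 54 genes covered a wide range of levels. On TPM, which corrects for length and so allows genes to be compared, 16 had a mean of at least 10 over the 6 libraries, 15 lay between 1 and 10, and 23 were under 1. The most abundant was SFRP1, a secreted Frizzled-related inhibitor, at 166 ± 5.69 TPM in control and 182 ± 3.54 TPM in knockdown (SD, n = 3 each). DKK3, a divergent member of the Dickkopf family, came next at 65.2 ± 4.55 and 56.1 ± 1.3 TPM. No ligand approached these levels: WNT5B was highest at 13.2 ± 1.29 and 12.6 ± 0.0907 TPM, WNT7A followed at 9.9 ± 0.986 and 10.8 ± 0.396 TPM, and the spreads of WNT5B and WNT7A did not overlap in either group. Among Frizzled receptors FZD3 led at 28.3 ± 1.62 and 27.5 ± 0.819 TPM. FZD8 at 19 ± 1.49 TPM, FZD2 at 16.4 ± 0.155 TPM and FZD5 at 14.6 ± 0.191 TPM followed in control, whereas in knockdown FZD5 at 20.7 ± 0.841 TPM and FZD2 at 19.6 ± 0.957 TPM stood above FZD8 at 16.4 ± 0.503 TPM.

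**Figure D1:**
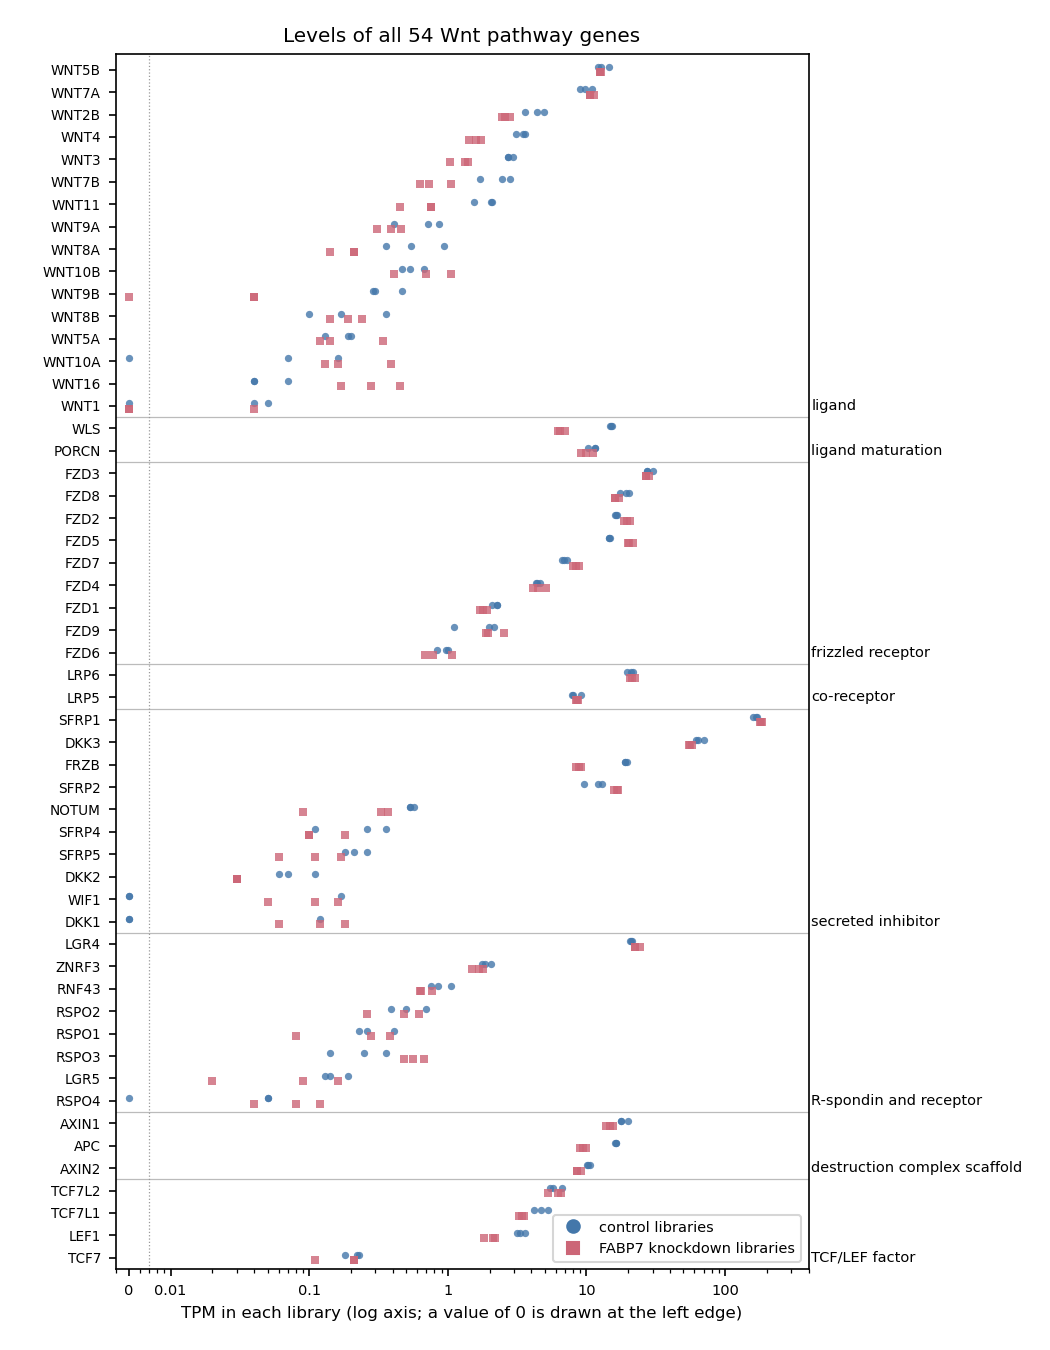
TPM of each of the 54 Wnt pathway genes in each library on a log axis, grouped by role and ordered by the control mean, with blue circles for the 3 control and red squares for the 3 knockdown libraries and values of 0 at the left edge. SFRP1 and DKK3 are far to the right of every ligand. The red squares lie left of the blue circles for WNT2B, WNT3, WNT4, WNT7B, WNT9B, WNT11, WLS and FRZB. They also lie left for APC, AXIN1, AXIN2, DKK3, FZD1, FZD8, LEF1, TCF7L1 and NOTUM, among others. For SFRP1, SFRP2, FZD2, FZD5, FZD7, LGR4 and RSPO3, among others, they lie right.

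The Wnt pathway genes changed in both directions. Of the 54, 41 passed the filter, 22 were called (53.7%, beside 51.7% of all genes), 12 of them higher (beside 26.4% of all genes) and 10 lower (beside 25.3%) in knockdown. The share called was thus near that of all genes, and the median log2 fold change was -0.03 beside -0.01 for all genes. Past the 1.5-fold test were 6 genes (14.6%, beside 4.69% of all genes), 5 lower (beside 2.55% of all genes) and 1 higher (beside 2.13%): WNT9B, WNT7B, WNT11, WLS and FRZB fell and RSPO3 rose. Control and knockdown libraries did not overlap in CPM for 26 of the 41 (63.4%, beside 57.3% of all genes). WNT9B and NOTUM passed the filter through the control libraries alone and RSPO3 through 3 knockdown libraries and 1 control library, so that such genes could enter only through the group where they were high. In bulk RNA a lower level can come from fewer cells of a type or from less RNA per cell, and these cannot be told apart.

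**Figure D2:**
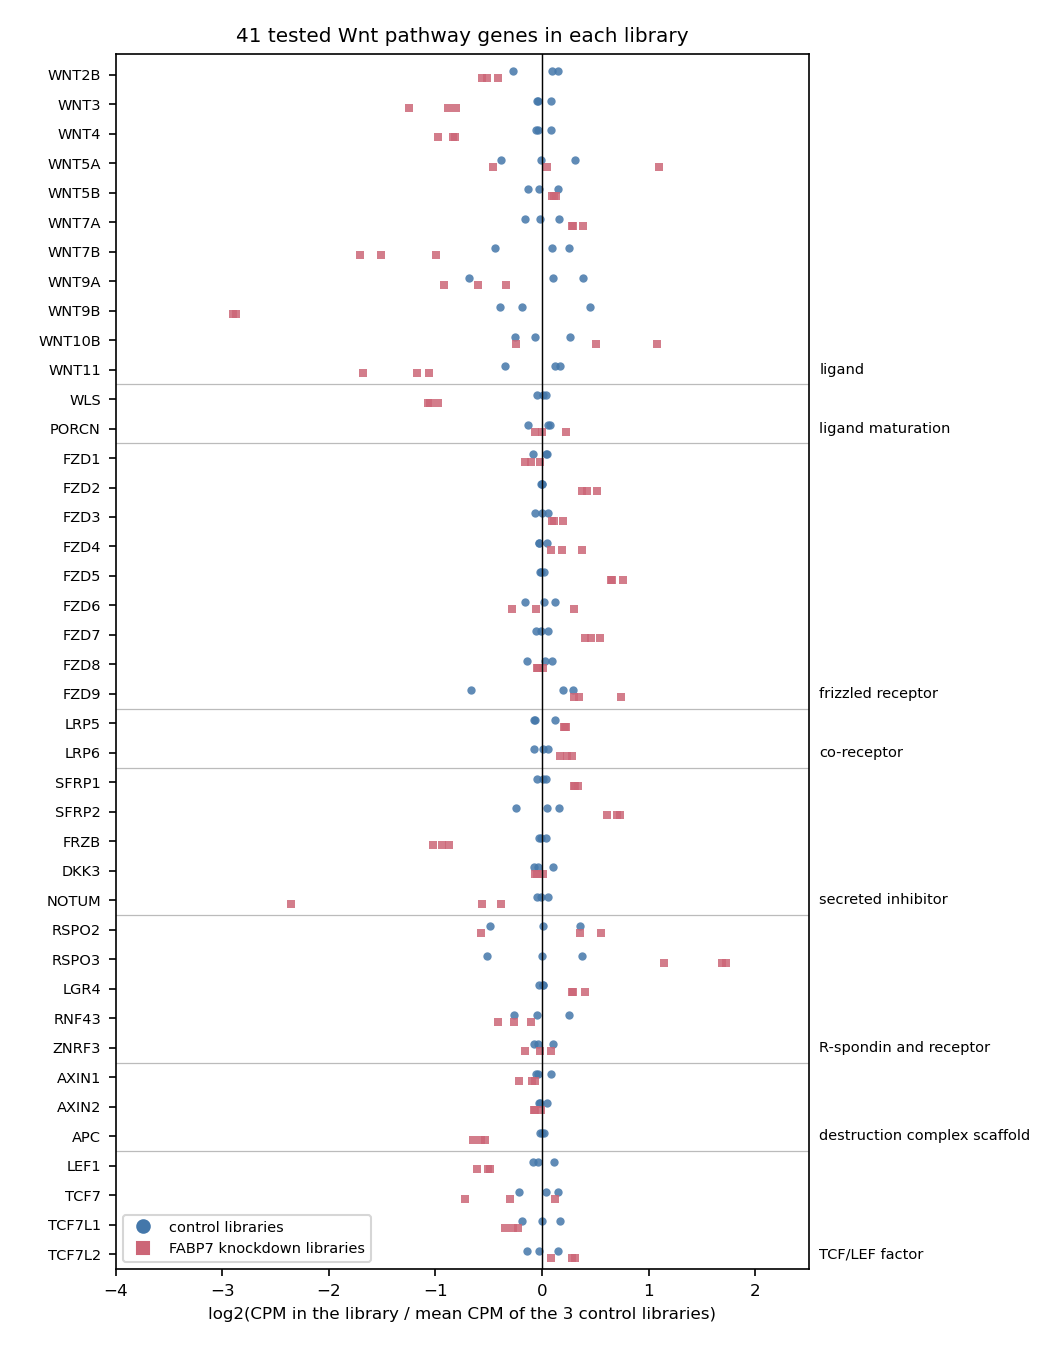
Log2 of the CPM in each library over the mean CPM of the control libraries, for the 41 tested genes by role, with blue circles for control and red squares for knockdown. The red squares of WNT9B, WNT7B, WNT11, WLS and FRZB lie to the left and those of RSPO3 to the right, and 1 knockdown library of WNT9B, at a count of 0, is not drawn.

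Among the ligands, 11 of 16 were tested and 63.6% of these were called, beside 51.7% of all genes. In knockdown 6 fell (beside 25.3% of all genes) and 1 rose (beside 26.4%), with a median log2 fold change of -0.61. WNT7B, a canonical ligand of the developing cortex, had counts of 95, 92 and 61 in control and 25, 29 and 42 in knockdown. Every knockdown library lay below every control library, and the level fell from 5.58 ± 1.32 to 2.15 ± 0.569 CPM (log2 fold change -1.37 ± 0.20 SE, adjusted p = 7.7e-06, 1.5-fold test adjusted p = 0.00316). WNT11, a ligand known for the non-canonical branch that steers cell movement, had counts of 43, 36 and 28 against 11, 17 and 16. The groups were again apart, at 2.4 ± 0.443 and 0.988 ± 0.21 CPM (log2 fold change -1.27 ± 0.25, adjusted p = 0.00022, 1.5-fold test adjusted p = 0.0347), though the 1.5-fold call held in 7 of 14 alternative settings, and of the fits without 1 library it held only without control replicate 3.

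WNT9B and WNT3 are neighbours on chromosome 17 (46833189 to 46886738 and 46762506 to 46818692 on GRCh38), and both fell. WNT9B, best known from the kidney, had counts of 12, 12 and 20 in control and 0, 2 and 2 in knockdown. Its summed counts of 44 and 4 gave a ratio of 11.5 with an exact 95% binomial interval of 4.19 to 44.1 that covers counting error only (fitted log2 fold change -3.34 ± 0.57, adjusted p = 3.79e-05). WNT3, a canonical ligand, had counts of 86, 74 and 87 against 44, 47 and 35, without overlap, and a log2 fold change of -0.97 ± 0.16 (adjusted p = 2.34e-05). It stopped short of the 1.5-fold call (adjusted p = 0.0627). The 147 other tested genes within 5 Mb of WNT9B had a median log2 fold change of 0.01, with 44 called higher and 27 lower, where 26.4% and 25.3% of all genes were so called. The span of LRRC37A2 in RefSeq overlaps both genes, and whether the counting used strand is not given in the sources used here.

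WNT4, known for the development of the kidney and gonads, fell from 7.83 ± 0.436 to 4.27 ± 0.246 CPM with counts of 120, 115 and 113 against 65, 59 and 66 (log2 fold change -0.87 ± 0.13, adjusted p = 6.13e-06). Its surroundings fell too: of the 94 other tested genes within 5 Mb of it on chromosome 1, 77 were called lower and 1 higher, and their median log2 fold change was -0.48. Of all genes, 25.3% were called lower and 26.4% higher. WNT2B, a ligand of the cortical hem, fell by 0.50 on the log2 scale (adjusted p = 0.000161), with counts of 372, 251 and 360 against 225, 244 and 224. Control replicate 2 lay nearest to the knockdown libraries, without overlap in CPM, and WNT2B overlaps ST7L in the annotation. FZD4 likewise overlaps PRSS23 and TCF7 overlaps VDAC1, and how reads of such pairs were divided was not tested.

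WNT7A, a ligand of the ventricular zone that also acts on brain vessels, rose. Counts were 380, 371 and 319 in control and 462, 437 and 439 in knockdown, and the level went from 24.1 ± 2.68 to 30.1 ± 1.25 CPM (log2 fold change 0.32 ± 0.08, adjusted p = 0.00136). On log2(TPM + 1) the difference was 0.12 and not called. WNT5B, the most abundant ligand and one of the non-canonical branch, had counts of 258, 253 and 224 against 263, 268 and 266, overlapping in CPM, with a log2 fold change of 0.12 ± 0.09 (adjusted p = 0.264). Log2 fold changes that did not pass were 0.39 for WNT5A, -0.61 for WNT9A and 0.55 for WNT10B. WNT1, WNT8A, WNT8B, WNT10A and WNT16 were below the filter. Of these, WNT16 had counts of 2, 1 and 1 against 13, 8 and 5, so that its knockdown libraries were 6.21 times higher (95% binomial interval 2.15 to 24.5, counting error only). WNT8A had 5, 12 and 6 against 3, 2 and 3, its control libraries being 3.01 times higher (95% binomial interval 1.3 to 7.78).

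The mix of ligand transcripts shifted with these changes. The summed TPM of the 16 ligands was 38.5 to 43.5 in the control libraries and 32.4 to 32.7 in the knockdown libraries, without overlap. WNT5B made up 32.5 ± 1.06% of that sum in control and 38.6 ± 0.443% in knockdown, and WNT7A 24.4 ± 0.89% and 33.2 ± 1.08%. WNT4 went from 8.38 ± 0.653% to 4.89 ± 0.456%, WNT3 from 6.91 ± 0.756% to 3.85 ± 0.585%, WNT7B from 5.7 ± 1.07% to 2.47 ± 0.677% and WNT11 from 4.64 ± 0.59% to 2.01 ± 0.548%. For each of these 6 genes the control and knockdown libraries were apart. WNT2B, at 10.8 ± 2.26% and 8.04 ± 0.585%, overlapped. The sum was taken on TPM only, and over all genes the median difference on log2(TPM + 1) was -0.16.

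**Figure D3:**
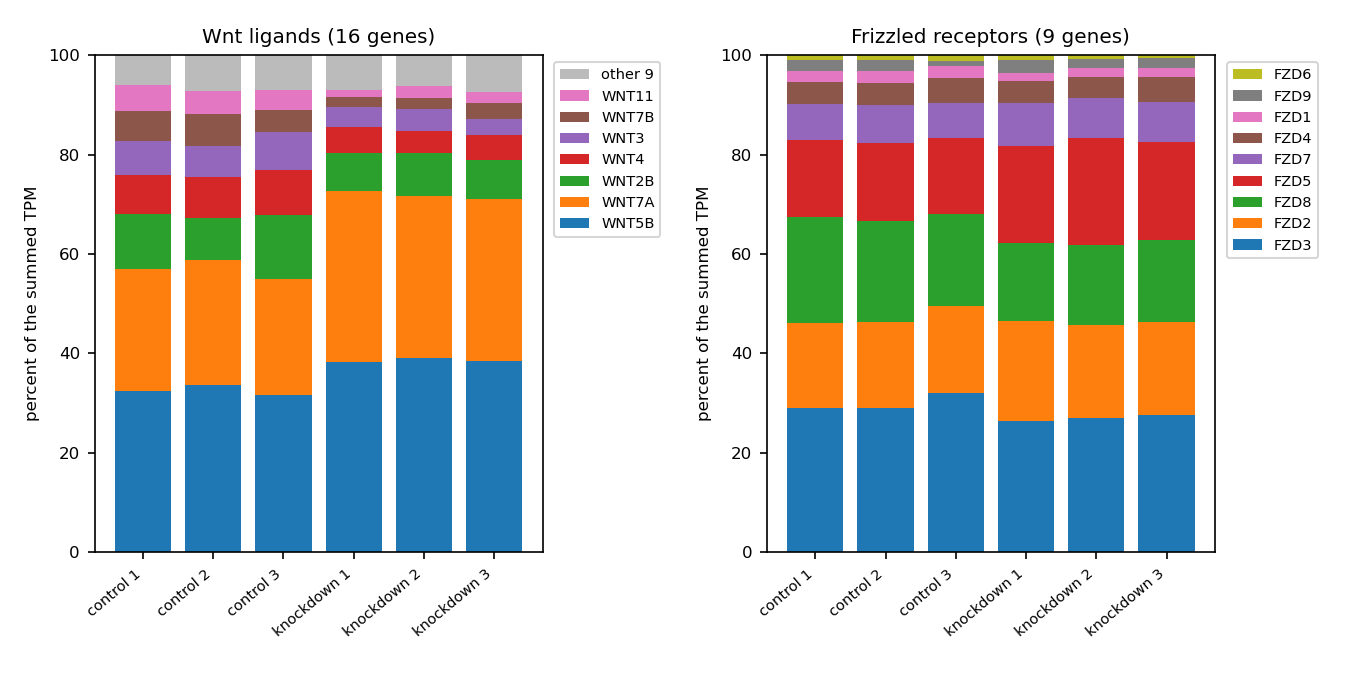
Percent of the summed TPM of the 16 Wnt ligands (left) and of the 9 Frizzled receptors (right) held by each gene in each library, with the 9 least abundant ligands pooled. WNT5B and WNT7A take a larger part of the ligand bars in the 3 knockdown libraries, and FZD5 a larger part of the receptor bars.

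Of the genes that prepare ligands, WLS fell and PORCN did not pass the test. WLS, the membrane protein that carries Wnts to the cell surface for release, had counts of 383, 313 and 349 in control and 166, 165 and 179 in knockdown. No library crossed between the groups, and the level fell 2.04-fold from 23.4 ± 0.693 to 11.5 ± 0.397 CPM (log2 fold change -1.03 ± 0.08, adjusted p = 4.29e-10, 1.5-fold test adjusted p = 7.08e-05). WLS lies on chromosome 1 at 68098459 to 68232546. The 31 other tested genes within 5 Mb of it had a median log2 fold change of 0.01, unlike the median in the region of WNT4. Of these 31, 7 were called higher (beside 26.4% of all genes) and 11 lower (beside 25.3%). PORCN, the enzyme that adds the lipid to Wnts, had a log2 fold change of 0.06 ± 0.10 (adjusted p = 0.662).

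Of the 9 Frizzled receptors, all tested, 5 rose on CPM and 4 did not pass, with a median log2 fold change of 0.22. The share called, 55.6%, was near the 51.7% of all genes, of which 26.4% were higher and 25.3% lower. The rises of FZD2, FZD5 and FZD7 were called in all 15 alternative settings and those of FZD3 and FZD4 were not. FZD5, a receptor of the early forebrain and eye field, rose most, with counts of 1039, 917 and 958 in control and 1502, 1636 and 1548 in knockdown. Its libraries did not overlap, at 65.4 ± 0.899 and 105 ± 4.53 CPM (log2 fold change 0.69 ± 0.05, adjusted p = 6.75e-11), but the rise did not pass the 1.5-fold test (adjusted p = 0.111). FZD7 rose by 0.47 ± 0.07 and FZD2 by 0.44 ± 0.06 on the log2 scale (adjusted p = 1.19e-05 and 1.44e-06). Both also rose on log2(TPM + 1), by 0.25 and 0.24.

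The rises of FZD3 and FZD4 were small, and both calls were lost with library totals alone, that of FZD4 also in the DESeq2 Wald test. FZD3, a receptor needed for axon tracts in the mouse brain, had counts of 3546, 3203 and 3587 against 3630, 3706 and 3994 and a log2 fold change of 0.13 ± 0.04 (adjusted p = 0.0117), which turned to -0.04 on log2(TPM + 1). FZD4, the receptor for norrin, rose by 0.22 ± 0.08 (adjusted p = 0.0242) on CPM and by 0.02 on log2(TPM + 1). By edgeR 0 Frizzled genes fell, also at an unadjusted p under 0.05 and by DESeq2 and limma-voom, whereas FZD8 was called lower, at -0.20, by limma-trend on log2(TPM + 1). The log2 fold changes that did not pass were -0.09 for FZD1, 0.00 for FZD6, -0.03 for FZD8 and 0.48 for FZD9. The summed TPM of the receptors was 94.6 ± 0.36 in control and 102 ± 1.77 in knockdown, and the share of FZD5 in it went from 15.5 ± 0.147% to 20.3 ± 1.16%, while that of FZD8 went from 20.1 ± 1.52% to 16.1 ± 0.335%.

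Both co-receptors were called higher on CPM. LRP6 had counts of 2141, 1747 and 2058 in control and 2202, 2323 and 2434 in knockdown, or 133 ± 6.26 and 156 ± 5.87 CPM (log2 fold change 0.23 ± 0.05, adjusted p = 0.000203), and LRP5 a log2 fold change of 0.22 ± 0.07 (adjusted p = 0.0124). On log2(TPM + 1) the differences were 0.04 and 0.03 and neither was called. The LRP5 call was also lost in the DESeq2 Wald test, with library totals alone and without control replicate 1.

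Secreted inhibitors split. FRZB, which binds Wnts in place of a receptor, fell from 29.8 ± 0.635 to 15.5 ± 0.803 CPM, with counts of 486, 408 and 434 against 238, 230 and 220. Its knockdown libraries all lay below the control libraries (log2 fold change -0.95 ± 0.07, adjusted p = 3.96e-10, 1.5-fold test adjusted p = 0.000283). SFRP1 and SFRP2, of the same Frizzled-related family, rose. SFRP1 had counts of 7063, 6369 and 6982 against 8300, 8437 and 8726, or 459 ± 14.2 and 572 ± 7.36 CPM, without overlap (log2 fold change 0.32 ± 0.04, adjusted p = 3e-07). SFRP2 went from 13 ± 1.8 to 21 ± 0.907 CPM (log2 fold change 0.69 ± 0.09, adjusted p = 1.68e-06).

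On TPM the total of the 10 inhibitors overlapped between groups, at 263 ± 10.1 TPM in control and 264 ± 2.48 TPM in knockdown. Within it SFRP1 went from 63.1 ± 1.16% to 68.9 ± 0.78% and FRZB from 7.3 ± 0.389% to 3.32 ± 0.174%. Over all genes the median difference on log2(TPM + 1) was -0.16. No total was taken on CPM, the scale on which SFRP1 and SFRP2 were called higher and FRZB lower. DKK3, the second in level, did not pass the test on CPM (log2 fold change -0.03 ± 0.05) and was called lower, at -0.21, on log2(TPM + 1). NOTUM, a secreted enzyme that removes the lipid from Wnts, had counts of 11, 10 and 10 against 2, 7 and 8 and a log2 fold change of -0.85 ± 0.43 (adjusted p = 0.107). SFRP4, SFRP5, DKK1, DKK2 and WIF1 were below the filter, at 0 to 9 counts per library.

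R-spondins raise the sensitivity of a cell to Wnt: they bind LGR receptors and remove the ubiquitin ligases RNF43 and ZNRF3, which otherwise clear Frizzled from the surface. RSPO3 was the 1 gene to rise past the 1.5-fold test, from a low level. It had counts of 12, 8 and 6 in control and 28, 19 and 28 in knockdown, or 0.579 ± 0.174 and 1.69 ± 0.349 CPM, with the groups apart (log2 fold change 1.52 ± 0.31, adjusted p = 0.000304, 1.5-fold test adjusted p = 0.0202). The 1.5-fold call held in 8 of 13 alternative settings and was lost without control replicate 2 or 3 or knockdown replicate 1 or 3. LGR4, the main R-spondin receptor by level here, rose from 68.5 ± 0.981 to 85.8 ± 3.97 CPM with counts of 1073, 953 and 1023 against 1220, 1239 and 1358 (log2 fold change 0.33 ± 0.05, adjusted p = 9.84e-06), and by 0.13, not called, on log2(TPM + 1). RSPO2 (0.19), RNF43 (-0.26) and ZNRF3 (-0.03) did not pass, in log2 fold change, and RSPO1, RSPO4 and LGR5 were below the filter.

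In the destruction complex APC fell and the AXIN genes did not pass. APC, the large scaffold that helps capture beta-catenin, had counts of 1795, 1518 and 1657 in control and 1096, 1051 and 1156 in knockdown, or 111 ± 1.39 and 74.2 ± 2.97 CPM, with a wide gap between the groups (log2 fold change -0.59 ± 0.05, adjusted p = 5.73e-10). AXIN1, the highest of the 3 scaffolds on TPM, had counts of 514, 491 and 484 against 468, 428 and 472 and a log2 fold change of -0.12 ± 0.07 (adjusted p = 0.14). AXIN2, which canonical Wnt signalling induces in many tissues, had counts of 409, 352 and 397 against 364, 365 and 389, overlapping in CPM, and a log2 fold change of -0.05 ± 0.07 (adjusted p = 0.585). On log2(TPM + 1) both AXIN genes were called lower, AXIN1 at -0.31 and AXIN2 at -0.21.

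Of the 4 TCF and LEF factors, LEF1 fell, with counts of 75, 67 and 80 against 52, 52 and 49 (log2 fold change -0.53 ± 0.15, adjusted p = 0.00492), a call lost in the DESeq2 Wald test. TCF7L2, the highest of the 4 on TPM, had counts of 244, 187 and 186 against 214, 248 and 257 and a log2 fold change of 0.22 ± 0.10 (adjusted p = 0.0531). TCF7L1, mainly a repressor, had a log2 fold change of -0.28 ± 0.12 (adjusted p = 0.0558), called lower at -0.37 on log2(TPM + 1), and TCF7, known from T cells, one of -0.26 ± 0.38.

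The median log2 fold change of chromosomal neighbours was lowest at 2 of the 54 genes. For WNT4 and for RSPO1, also on chromosome 1 (37611350 to 37634892), the other tested genes within 5 Mb had medians of -0.48 and -0.46. For the other 52 genes this median lay between -0.19, at RSPO3, and 0.15, at PORCN. Called neighbours were uneven at some of these too. At PORCN 32 of 75 were called higher and 11 lower, and at DKK3 19 of 48 higher and 4 lower. At NOTUM 13 of 86 were called higher and 28 lower. Of all genes 26.4% were called higher and 25.3% lower. WLS, FRZB, WNT7B, WNT9B and WNT11 fell among neighbours with medians of 0.01, 0.13, -0.06, 0.01 and 0.00. RSPO3 rose among 31 tested neighbours, of which 14 were called lower (beside 25.3% of all genes) and 4 higher (beside 26.4%). RSPO3 and the targeted gene FABP7 are both on chromosome 6, and what this means for RSPO3 was not tested.

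**Figure D4:**
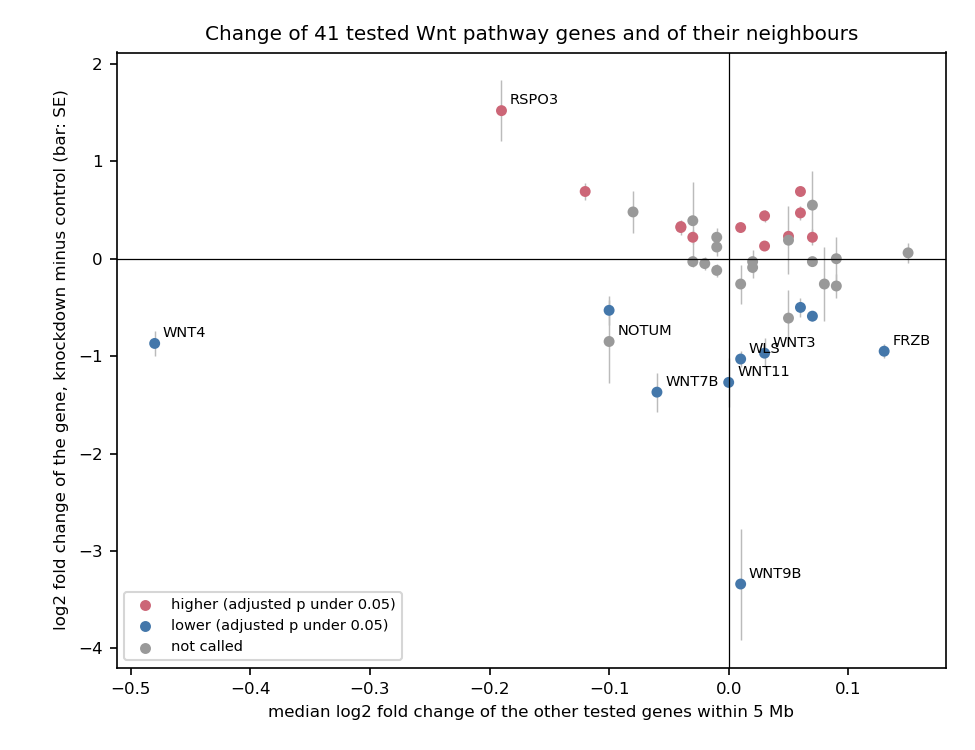
Log2 fold change of each of the 41 tested genes (bars, SE) against the median log2 fold change of the other tested genes within 5 Mb, in red where called higher, blue where called lower and grey where not called. WNT4 stands alone at the left, at a neighbour median of -0.48, while the other genes that fell lie at neighbour medians between -0.10 and 0.13.

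Genes of the pathway outside the 54 were read from 5 lists. Their calls are to be read beside the 26.4% of all genes called higher and the 25.3% called lower. Of the cell surface list, 17 genes were tested, 5 rose and 3 fell, with a median log2 fold change of -0.09. The share called was 47.1%, beside 51.7% of all genes. NDP, which encodes norrin, a ligand of FZD4 outside the Wnt family, went from 1.24 ± 0.0452 to 3.37 ± 0.22 CPM with counts of 19, 17 and 19 against 52, 51 and 47 (log2 fold change 1.44 ± 0.21, adjusted p = 3.57e-06, 1.5-fold test adjusted p = 0.0014). SERPINF1, a secreted protein reported to bind LRP6, rose by 1.39 ± 0.14, and GPC3, a glypican that binds Wnts, by 0.99 ± 0.14, both past the 1.5-fold test. TMEM59 fell by 0.34 on the log2 scale, among chromosome 1 neighbours with a median of -0.38. Chosen after its values were seen, ROR2, the receptor tyrosine kinase for WNT5A, fell past 1.5-fold with counts of 73, 46 and 54 against 28, 21 and 24 (log2 fold change -1.24 ± 0.20, adjusted p = 2.12e-05).

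In the cytoplasm list 30 genes were tested, 12 fell and 3 rose (50% called, beside 51.7% of all genes), with a median of -0.09. CXXC5, an inhibitor of Dishevelled, fell by 0.56, BTRC, the ubiquitin ligase subunit that marks beta-catenin, by 0.42, and DVL1, a Dishevelled, by 0.48 on the log2 scale, while DACT1, a Dishevelled-binding protein, rose by 0.44. DVL1 lies on chromosome 1 among neighbours with a median of -0.50. In the nuclear list 19 genes were tested, 9 fell and 0 rose by edgeR (47.4% called, beside 51.7% of all genes), with a median of -0.12. At an unadjusted p under 0.05, and by DESeq2, limma-voom and limma-trend, 0 rose as well, whereas without control replicate 3 a single gene, PYGO1, was called higher by edgeR. The co-repressors TLE1 and TLE4 fell by 0.73 and 0.48, the beta-catenin inhibitor CTNNBIP1 by 0.90 and the deacetylase HDAC1 by 0.32 on the log2 scale, TLE1 and CTNNBIP1 past 1.5-fold. CTNNBIP1 and HDAC1 are on chromosome 1, among neighbours with medians of -0.53 and -0.44.

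In the planar cell polarity list 23 genes were tested, 8 fell and 1 rose (39.1% called, beside 51.7% of all genes), with a median of -0.08. CAMK2B, a calcium-dependent kinase of neurons, fell past 1.5-fold by 0.97 on the log2 scale. CDC42, a small GTPase, fell by 0.49 among chromosome 1 neighbours with a median of -0.48. The polarity cadherin CELSR3 fell by 0.42 and its relative CELSR1 rose by 0.52.

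Among genes named as Wnt targets in various tissues, 16 were tested, 6 fell and 3 rose, with a median of -0.18. The share called was 56.2%, beside 51.7% of all genes. SP8, a patterning factor of the forebrain, fell past 1.5-fold, with counts of 738, 604 and 656 against 381, 329 and 368 (log2 fold change -0.89 ± 0.07, adjusted p = 2.4e-10). ID2 fell by 0.58 and EPHB2 by 0.43, the latter among chromosome 1 neighbours with a median of -0.47, and CCND2, a cyclin of dividing progenitors, rose by 0.24 on the log2 scale. Named after their values were seen, NKD1 and APCDD1, inhibitors that Wnt signalling induces, had log2 fold changes of -0.04 ± 0.13 and -0.03 ± 0.14 (adjusted p = 0.82 and 0.86), and MYC had 0.22 ± 0.12 (adjusted p = 0.122).

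**Figure D5:**
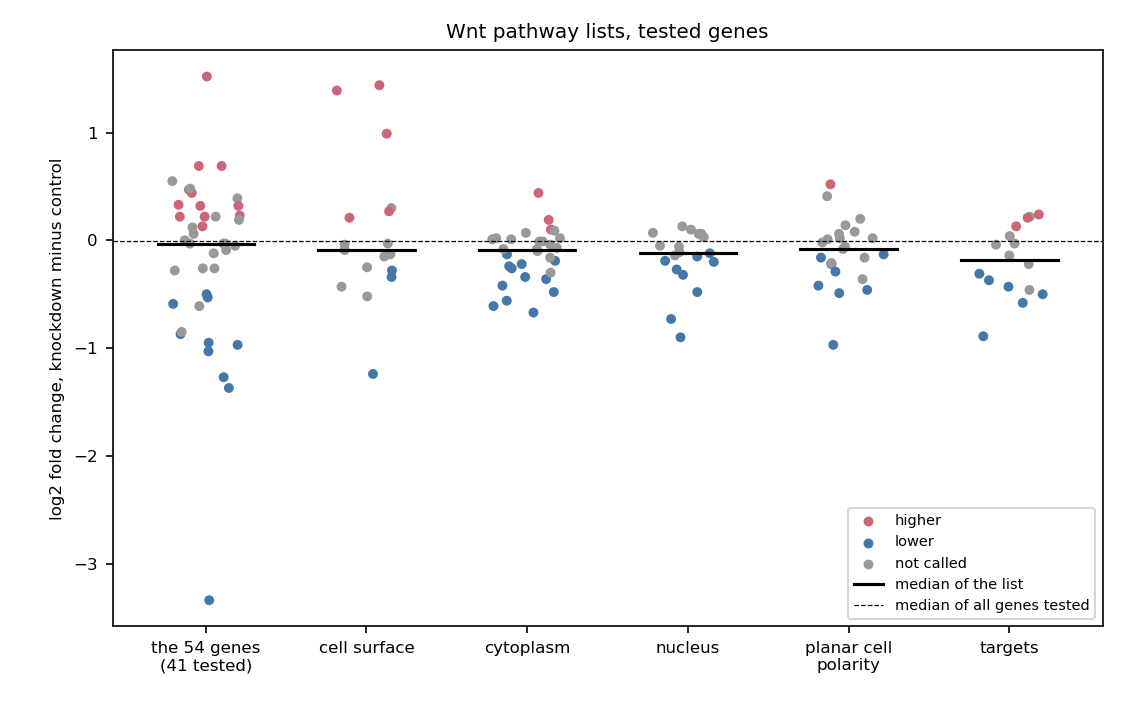
Log2 fold changes of the tested genes among the 54 and in the 5 other pathway lists, in red where called higher, blue where called lower and grey where not called, with black bars at each list's median and a dashed line at the median of all genes tested, -0.01. The nuclear list holds blue but no red points, and the list medians lie between -0.18 and -0.03.

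Markers of cell types, some of them among the 54 genes, moved between the groups as well, and their part in the Wnt results was not tested. Counts of called markers are to be read beside the 25.3% of all genes called lower and the 26.4% called higher. The 20 cortical hem markers in the table summed to 176 to 183 TPM in control and 96.6 to 99.2 TPM in knockdown. This sum was mainly DKK3 and ZIC1, which are at 65.2 and 56.1 TPM and at 68.1 and 13.2 TPM, while the hem factors LMX1A, LMX1B, MSX1 and MSX2 were each under 1 TPM in both groups. Of the 13 tested hem markers 5 fell, among them WNT2B and ZIC1, and 2 rose, BMP7 and RSPO3. The 12 neuron markers, of which STMN2 and TUBB3 were the most abundant, summed to 3433 to 3529 TPM against 2271 to 2310 TPM. On CPM 11 of them were called lower. Past 1.5-fold were 5 (41.7%, beside 4.69% of all genes): NEFL, NEFM, SYT1, SNAP25 and ELAVL4. The 12 radial glia markers, led by VIM and FABP7, summed to 1922 to 1983 TPM against 1185 to 1227 TPM, and without FABP7 to 1328 to 1394 TPM against 1183 to 1225 TPM, a sum carried by VIM. Among the 12, 5 were called lower on CPM and 3 higher, SOX2, HES5 and NOTCH1, by 0.58, 0.69 and 0.15 on the log2 scale. Over all genes the median difference on log2(TPM + 1) was -0.16.

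Antihem markers, led by FGF7 and by SFRP2, itself among the 54 genes, summed to 38.6 to 41.8 TPM in control and 32.5 to 33.7 TPM in knockdown. On CPM they went both ways, with SFRP2 and NRG1 called higher and FGF7, FGF19 and NRG3 lower. Choroid plexus markers, led by OTX2 and SLC4A10, summed to 29.6 to 30.5 TPM against 22.6 to 24 TPM, with TTR under 1 TPM, FOLR1 at 0 in every control library and CLDN2 at 0 in every knockdown library. Mesenchyme markers, led by PDGFRB and LUM, summed to 5.58 to 6.3 TPM against 10.2 to 11 TPM, with DCN and POSTN at 0 in control. Most of that gain was LUM at 0.303 and 3.81 TPM, while COL1A1 stood at 0.607 and 0.62 TPM and COL1A2 at 1.7 and 1.64 TPM. On CPM LUM and PDGFRB were called higher, and the other 3 tested mesenchyme markers were not called. Retinal markers, led by PMEL and RPE65, summed to 3.13 to 4.26 TPM against 10.9 to 12.1 TPM, most of the gain being PMEL at 1.65 and 9.19 TPM, with RAX at 0 in control.

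Microglia markers summed to 18.8 to 21.7 TPM against 62.9 to 66.4 TPM, nearly all of it AIF1, with P2RY12 next and PTPRC at 0 in control. Pluripotent markers, led by DPPA4 and LIN28A, summed to 16.9 to 18.2 TPM against 12.8 to 15.4 TPM. On CPM only LIN28A was called, lower by 0.88 on the log2 scale, among chromosome 1 neighbours with a median of -0.45. The other 3 tested pluripotent markers were not called. Markers of the midbrain and hindbrain, led by FGF8 and GBX2, reached at most 2.81 TPM in sum, with HOXA3 at 0 in control and HOXB2 at 0 in knockdown. Endothelial markers, led by CLDN5 and TIE1, reached at most 0.87 TPM, with PECAM1 and CDH5 at 0 in knockdown, and endodermal ones, led by APOA1 and FOXA2, at most 0.61 TPM, with SOX17, FOXA2 and GATA4 at 0 in control and GATA6 at 0 in knockdown.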

How the data were processed

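Bulk RNA was measured in 3 control and 3 knockdown libraries, and 2 single-cell libraries were not analysed here. Per the file headers, the deposited table held 4 values per gene and library: expected counts, TPM, FPKM, and a read count signal that the authors scaled by 1 factor per library. FPKM, the normalized signal and the authors' group means entered no result. The submitters' processing notes name hg38. The aligner, counter, annotation and strand use were not given in the sources used here. The labels' protocol covers single-cell libraries and says nothing separate of the bulk ones. Of the expected counts 12.6 to 14.9% per library were not whole.

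Rounded expected counts were tested with edgeR 4.0.16 in R 4.3.3, using filterByExpr (minimum count 10, minimum total 15), TMM, the robust quasi-likelihood F-test and Benjamini-Hochberg adjustment over 13468 genes, threshold 0.05. The test against a 1.5-fold change was glmTreat in that fit. Log2 fold changes are knockdown minus control. CPM are TMM-scaled means ± SD over 3 libraries, and on that scale 3 counts in a library correspond to 0.188 to 0.217 CPM. Chi-square per degree of freedom between replicates was 1.63 to 3.93, above counting noise. Intervals and floors cover counting error only. Alternatives were other scalings, DESeq2 1.42.0, limma 3.58.1 (voom, and limma-trend on log2 of TPM plus a pseudocount of 1), other filters, the replicate block, and leaving out each library. The test was tried on simulated counts. Neighbours and promoters came from RefSeq on GRCh38.p14.

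The genes and lists were chosen with earlier results of these data known. All 54 genes are named. Those past the 1.5-fold test and the most abundant in each role were to be given with counts in every library, and the counts of others were added after their values were seen, as were ROR2 and the marker names beyond the rule. Of each pathway list up to 4 called genes by smallest p are named, and of each marker list the 2 most abundant and those at 0. The results of 2 marker lists are not reported here.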

Additional observations from a re-analysis of the deposited data

How the results depend on the processing

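Of the 22 called Wnt genes, 15 kept their call in each of the 15 alternative settings that could test them. The 7 that lost it in at least 1 were WNT7A, FZD3, FZD4, LRP5, LRP6, LGR4 and LEF1, and WNT9A, FZD8, FZD9, DKK3, NOTUM, AXIN1, AXIN2, TCF7L1 and TCF7L2, 9 uncalled genes, gained a call in some setting. FZD3 reversed to -0.04 on log2(TPM + 1). FZD3 and FZD4 also lost their calls without control replicate 1 and without knockdown replicate 3, FZD4 without control replicate 2 and LRP5 without control replicate 1.

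On log2(TPM + 1), where the median of all genes was -0.16 and 31 Wnt genes were tested, 5 Wnt genes were called higher and 14 lower, the 5 being FZD2, FZD5, FZD7, SFRP1 and SFRP2, while 2, FRZB and WLS, passed 1.5-fold and 24 of the cytoplasm list were called. Of all genes called, 20.6% were higher there, beside 51.1%. With library totals alone 9 Wnt genes were called higher and 12 lower, and 37.7% of all called genes were higher. The causes were not tested.

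Leaving out each library in turn gave 5888 to 6983 called genes, 20 to 23 called Wnt genes, 4 to 5 past 1.5-fold, and 5 to 10 called in the cell surface list (5 without control replicate 2), 12 to 14 in the cytoplasm, 6 to 12 in the nuclear, 7 to 11 in the polarity and 8 to 10 in the target list. RSPO3 lost its 1.5-fold call in 4 of these 6 fits, without control replicate 2 or 3 or knockdown replicate 1 or 3, and WNT11 in 5, all but that without control replicate 3. WNT7B, WNT9B, WLS and FRZB kept theirs in all 6.

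Deviations from the group means of same-numbered libraries correlated at 0.0393 to 0.0698, and those of differently numbered libraries at -0.121 to 0.0566. The numbers were not taken as pairs in the reported fit. With the replicate block 7114 genes, 22 Wnt genes and 6 past 1.5-fold were called. For the 13 genes below the filter no test was made in the reported fit, and counts this low leave wide intervals.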
